A study of Mus musculus with 311 samples.

Results

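The chemokines and their receptors were taken as the genes whose symbols begin with Ccl, Cxcl, Ccr or Cxcr followed by a number. Cx3cl1, Cx3cr1, Xcl1 and Xcr1 were added where a probe named them, and Cxcl9 was left out and is not reported here. Of 47 such genes with a probe, 46 were measured on at least 95% of the arrays and are described here, out of 11387 genes measured in the same way: 31 ligands and 15 receptors. Cxcl1, measured on 92.3% of the arrays, fell just outside that limit. Ccr7 was the member with the most missing values, 9 of 311. The samples were livers of 311 F2 mice, 1 array each, from an intercross of C57BL/6J and C3H/HeJ parents that both lacked ApoE, the lipoprotein ligand whose loss gives mice high cholesterol and atherosclerosis. All animals, of both sexes, carried that deletion and ate a high fat Western diet from 8 to 24 weeks of age, so no wild-type, chow-fed or untreated group stands beside them and every statement is about variation within this 1 group. Each array carried the labelled RNA of 1 animal in the Cy3 channel and, in the Cy5 channel, a pool made from equal parts of all the samples. Every value below is the log10 ratio of the animal to that pool, so that 0 equals the pool. A ratio does not say how abundant a transcript is. Levels were therefore not compared between genes, and the labelled tissue could not be checked against the level of its markers.

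Chemokines are small secreted proteins that direct the migration of leukocytes by binding receptors coupled to Gi proteins on the cell surface. Inflammatory members such as Ccl2, Ccl3 and Cxcl10 are induced by cytokines and microbial products and draw monocytes, neutrophils or effector T cells into tissue, while homeostatic members such as Cxcl13, Ccl19 and Ccl21a place lymphocytes within lymphoid tissue. In liver, Kupffer cells, endothelium, stellate cells and hepatocytes can all make chemokines, and many receptors are found mainly on immigrant leukocytes. In whole liver, fewer cells of a type and less RNA per cell cannot be told apart.

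The labels do not give the sex of an animal, and the 311 arrays fell into separate clusters on the Y-linked gene Eif2s3y. Correlations were therefore computed within each of 2 sets of arrays, split at a value of -0.5 on that gene: the lower set, 156 arrays at a median of -1.46 and none above -0.875, and the upper set, 155 arrays at a median of 0.358 and none below -0.219. The sets are not groups of the study, and no difference between them was tested. Where 2 values follow a gene, the first is from the lower set and the second from the upper set. The SD of an array over all probes ran from 0.0658 to 0.206, with medians of 0.0986 and 0.102. On 6 arrays, 2 in the lower and 4 in the upper set, pancreatic or muscle transcripts (Prss1, Prss2, Try5, Ckm or Acta1) reached 10-fold over the pool. Of 48205 array pairs, 131 correlated below -0.3 over all probes, the lowest at -0.435; the labels state the dyes, and the direction was kept. Animals were not replicated, so the spread described includes measurement error, and the number of arrays limits the precision.

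Ligands as a class varied more between animals than receptors. The SD of a gene over arrays was set against the median SD of all genes, which was 0.0621 and 0.0651, or 1.15-fold and 1.16-fold. Among all genes, 9.74% in the lower set and 10.6% in the upper set had an SD of 2 or more times that median. Among the 46 members, 15 and 16 did. All 15 in the lower set were ligands, out of 31, and so were 15 of the 16 in the upper set, where Ccr6, the receptor of Ccl20, was the only receptor of 15, at 2.27 times the median. The median multiple was 1.96 and 1.93 for ligands and 1.22 and 1.2 for receptors. This is a description, and the difference between ligands and receptors was not tested.

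Ccl27a, an epithelial chemokine that attracts skin-homing T cells, had the widest spread, at 4.84 and 5.52 times the median SD. Next came Ccl8 (3.59 and 3.88), a ligand made by macrophages, Ccl5 (3.63 and 3.78), the chemokine secreted by activated T and NK cells, and Ccl4 (3.23 and 3.56) and Ccl3 (3.23 and 3.51), the macrophage inflammatory proteins. Cxcl13 (3.52 and 3.11), Cxcl2 (2.89 and 3.56), Ccl2 (2.88 and 3.44), Cxcl14 (2.62 and 3.48) and Cxcl10 (2.93 and 2.86) followed, and Ccl7 (2.53 and 3.21), Ccl20 (2.53 and 3.05), Cxcl5 (2.72 and 2.85) and Ccl11 (2.3 and 2.69) were past 2 times the median in both sets as well. At the other end Ccr10, the receptor of Ccl27a and Ccl28, stood at 0.381 and 0.356 and Cxcl15, a lung chemokine, at 0.482 and 0.517. Ccr10 ran from -0.1 to 0.0955 over all 311 arrays, so its values stayed close to the pool in every animal.

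**Figure D1:**
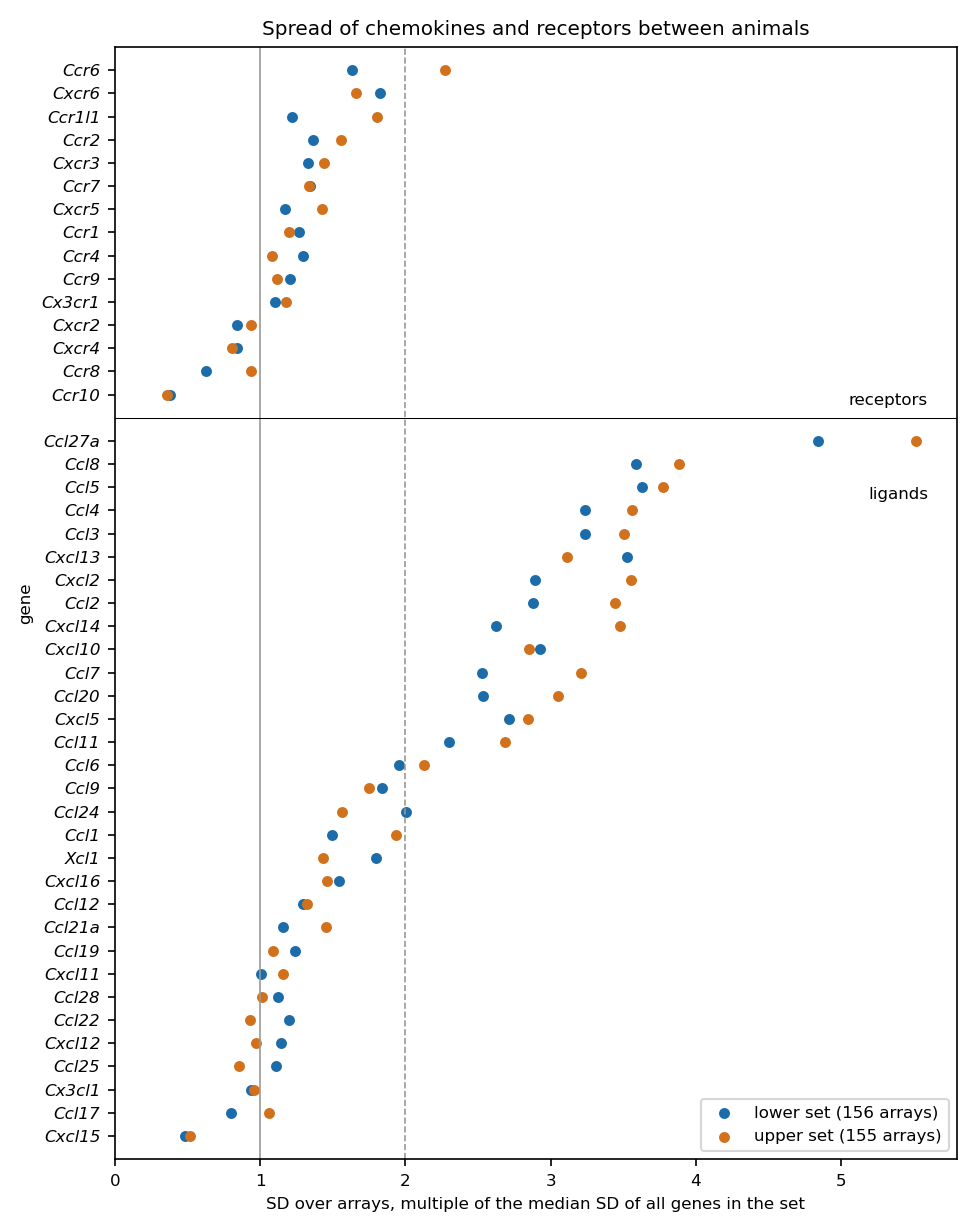
SD over arrays of each of the 46 genes on the horizontal axis, as a multiple of the median SD of all genes in the same set (solid line at 1, dashed line at 2), with receptors above and ligands below; blue points are the lower set and orange points the upper set. Ligands such as Ccl27a, Ccl8 and Ccl5 reach 3.59 or more, while Ccr6 in the upper set is the only receptor point beyond 2.

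Among the widely varying ligands, 7 inflammatory genes varied together across animals: Ccl2, Ccl3, Ccl4, Ccl7, Cxcl2, Cxcl5 and Cxcl10. Each of their 21 pairs had a Pearson r of 0.5 or more in both sets, with medians of 0.667 and 0.701. These 7 were picked after their correlations were seen, so no test is given for them. For comparison, 29 of the 465 ligand pairs (6.24%), 1 of the 105 receptor pairs and 1 of the 465 pairs of a ligand with a receptor reached 0.5 in both sets, as did 0.271% of the pairs of all genes. The 29 ligand pairs include the 21 of these 7 genes, and 8 of the other 444 (1.80%) reached it. Genes measured on the same arrays share array quality and cell composition, so these r are descriptions over 156 and 155 arrays.

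Ccl2, which recruits monocytes through Ccr2, had a lowest, median and highest value of -0.773, -0.0656 and 0.251 in the lower set and -0.651, 0.0351 and 0.63 in the upper set. Ccl7, a second Ccr2 ligand, had -0.55, -0.049 and 0.303 in the lower set and -0.516, 0.00775 and 0.706 in the upper set. The highest values of both lay in the upper set, and the ranges of the sets overlapped. Between the 5 and 95 percentiles of animals, Ccl2 spanned 3.79-fold and 4.79-fold and Ccl7 3.11-fold and 4.86-fold. Ccl2 and Ccl7 lie next to each other in the genome and were correlated at 0.87 and 0.89. The genes most like Ccl2, ranked over all genes by the lower of the 2 sets' r, were Ccl7 (0.87 and 0.89), Relb (0.73 and 0.84) and Ralgds (0.73 and 0.83); Relb encodes a subunit of NF-kappaB. Those most like Ccl7 were Ccl2 (0.87 and 0.89), Cxcl10 (0.75 and 0.71) and Hcar2 (0.70 and 0.79).

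Ccl3 and Ccl4, neighbouring genes for ligands made by activated macrophages and lymphocytes, formed the tightest pair, at 0.87 and 0.95. Ccl3 had a lowest, median and highest value of -0.565, -0.0215 and 0.504 in the lower set and -0.713, 0.0175 and 0.679 in the upper set. Ccl4 had -0.586, -0.0361 and 0.746 in the lower set and -0.597, 0.0298 and 0.737 in the upper set. Both genes were centred near the pool and reached 3-fold or more above it in single animals of each set. Ccl3 was most like Ccl4 (0.87 and 0.95), Ralgds (0.73 and 0.79) and Tnf (0.71 and 0.79) and Ccl4 most like Ccl3 (0.87 and 0.95), Tnf (0.78 and 0.83) and Cxcl10 (0.76 and 0.82); Tnf is the macrophage cytokine that induces many chemokines.

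Cxcl2 and Cxcl5 attract neutrophils through Cxcr2, and Cxcl10 attracts activated T cells through Cxcr3. The lowest, median and highest values of Cxcl2 were -0.71, -0.0993 and 0.375 in the lower set and -0.584, -0.0298 and 0.969 in the upper set. Those of Cxcl5 were -0.663, -0.00818 and 0.5 in the lower set and -0.582, -0.018 and 0.506 in the upper set. Cxcl10 had -0.544, 0.0228 and 0.404 in the lower set and -0.579, -0.0481 and 0.5 in the upper set. The animal with the most Cxcl2 belonged to the upper set, while Cxcl5 and Cxcl10 covered nearly the same range in each set. Cxcl2 was most like Ccl7 (0.69 and 0.68), Clec4d (0.63 and 0.84) and Ccl2 (0.62 and 0.62). The 3 genes most like Cxcl5 were all ligands of the group, Ccl2 (0.67 and 0.67), Ccl7 (0.69 and 0.66) and Ccl3 (0.61 and 0.64), and the same held for Cxcl10, Ccl4 (0.76 and 0.82), Ccl2 (0.80 and 0.72) and Ccl7 (0.75 and 0.71).

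Promoters of 3 of the 7 are printed because they move together and RefSeq sequence was at hand for them (GRCm38.p6, the 250 bases before the annotated start, read 5′ to 3′ on the gene's strand). Capitals mark matches to the NF-kappaB consensus, to the interferon-stimulated response element core (GAAA, any 2 bases, GAAA) or to the AP-1 site TGANTCA, each searched on both strands. They are Cxcl10 at chr5:92348890-92349139 on the minus strand, Cxcl2 at chr5:90903649-90903898 on the plus strand and Ccl3 at chr11:83649379-83649628 on the minus strand.
Cxcl10: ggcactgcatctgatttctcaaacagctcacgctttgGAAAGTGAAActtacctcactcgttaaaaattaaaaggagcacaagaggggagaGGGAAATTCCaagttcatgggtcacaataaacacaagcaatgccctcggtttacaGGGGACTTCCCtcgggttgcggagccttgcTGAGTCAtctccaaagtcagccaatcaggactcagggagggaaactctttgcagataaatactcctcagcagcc
Cxcl2: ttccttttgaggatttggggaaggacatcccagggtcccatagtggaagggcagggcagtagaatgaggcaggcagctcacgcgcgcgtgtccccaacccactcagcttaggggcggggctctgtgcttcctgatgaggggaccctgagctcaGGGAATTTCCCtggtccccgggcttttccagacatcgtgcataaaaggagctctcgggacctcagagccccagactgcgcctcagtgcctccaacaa
Ccl3: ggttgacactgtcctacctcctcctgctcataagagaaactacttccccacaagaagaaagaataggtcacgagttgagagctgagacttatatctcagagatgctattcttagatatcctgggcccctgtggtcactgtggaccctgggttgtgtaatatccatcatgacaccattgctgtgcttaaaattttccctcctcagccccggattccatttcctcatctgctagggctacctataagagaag
In Cxcl10, the first capitals are the response element core at 213 to 204 bases before the start. They are followed by NF-kappaB matches at 159 to 150 and at 104 to 94. The latter are 2 overlapping matches shifted by 1 base, of which the second reads as a match on both strands. An AP-1 match at 74 to 68 also reads as a match on both strands. Cxcl2 has 1 stretch, at 97 to 87, where a match on the gene's strand and one on the opposite strand overlap. The Ccl3 window holds none of these letters. Of the 34 members with a promoter entry, 7 hold the NF-kappaB consensus (Ccl1, Ccl9, Ccl20, Ccr1, Ccr6, Cxcl2 and Cxcl10), 3 the response element core (Ccl19, Cxcl10 and Cxcl14) and 4 the AP-1 site (Ccl9, Ccl27a, Ccr4 and Cxcl10). Among all 32851 promoters of that length the shares were 7.25%, 2.98% and 6.75%. Letters that match are a description of the sequence and do not show that a factor is bound.

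**Figure D2:**
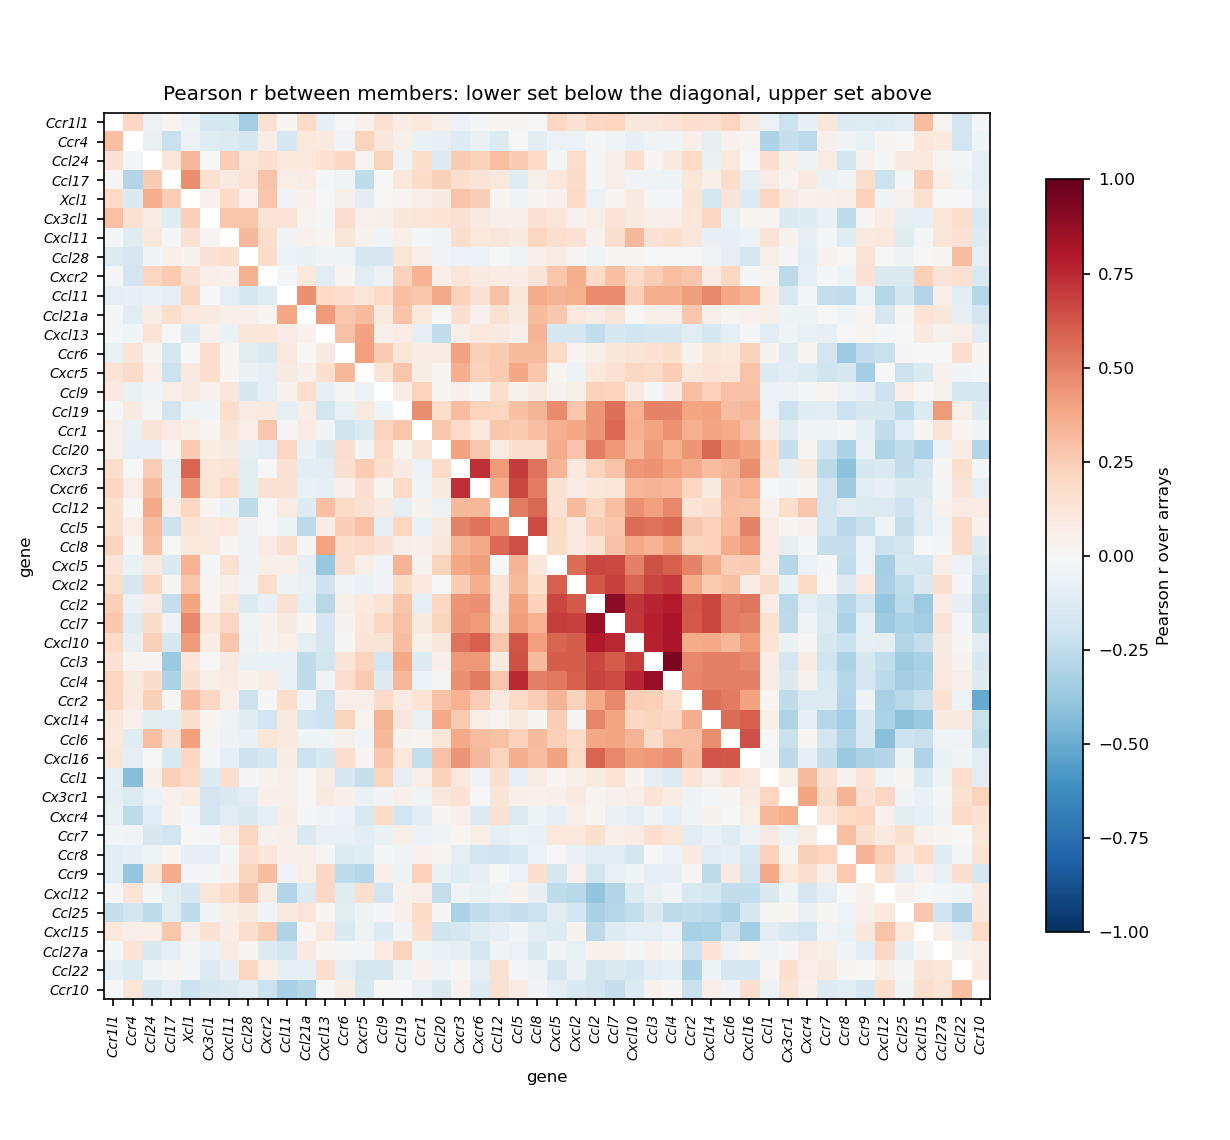
Pearson r between every pair of the 46 genes, from -1 (blue) to 1 (red), with the lower set below the diagonal and the upper set above it; genes are ordered by average-linkage clustering of the mean r. The dark red block near the centre holds Ccl2, Ccl3, Ccl4, Ccl7, Cxcl2, Cxcl5 and Cxcl10, and the smaller block before it Cxcr3, Cxcr6, Ccl5, Ccl8 and Ccl12.

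Members were then set against a macrophage score, the mean of 24 standardized macrophage genes on each array. By the mean r with the other genes of the list, Fcer1g followed the rest most closely in the lower set (0.55) and C1qc in the upper set (0.53), and Cd163 least (-0.20 and -0.13). A call below means an adjusted p under 0.05 from limma, fitted within a set of arrays over all genes with Benjamini-Hochberg adjustment. In the lower set 19 members rose with the score and 1 fell, where 24.1% of all genes were called, 12.8% up and 11.4% down. In the upper set 23 rose and 6 fell, where 36.1% of all genes were called, 16% up and 20.1% down. Rising in both were 18 members: Ccl2, Ccl3, Ccl4, Ccl5, Ccl6, Ccl7, Ccl8, Ccl9, Ccl12, Ccl24, Cxcl5, Cxcl10, Cxcl14, Cxcl16, Ccr2, Ccr6, Cxcr3 and Cxcr6. The median r of the members was 0.107 and 0.185, beside -0.0322 and -0.0333 for all genes. With the single gene Ctss, a lysosomal protease, 21 members rose and 3 fell in the lower set (all genes called, 32.6%, with 15.5% up and 17.1% down) and 24 rose and 8 fell in the upper set (all genes called, 41.2%, with 18.3% up and 23% down). With Lgmn, the protease legumain, 15 rose and 6 fell (all genes called, 28.8%, with 14.4% up and 14.4% down) and 21 rose and 7 fell (all genes called, 38.4%, with 17.3% up and 21.1% down); Ccr1 was among those that fell with Lgmn in the lower set and among those that rose in the upper set.

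Cxcl16, a transmembrane chemokine of macrophages that also binds oxidized lipoprotein, followed the macrophage score most closely. Its lowest, median and highest values were -0.225, 0.00662 and 0.268 in the lower set and -0.255, -0.0358 and 0.245 in the upper set. The r was 0.71 and 0.77 (95% intervals 0.62 to 0.78 and 0.70 to 0.83; rho 0.72 and 0.76; limma adjusted p 9.33e-23 and 2.49e-29), and 0.69 and 0.77 without the 2 arrays farthest from the median score. The genes most like it were Itgb2 (0.76 and 0.77), Abcg1 (0.75 and 0.76) and Ctss (0.76 and 0.75); Itgb2 is the leukocyte integrin beta chain, Abcg1 a cholesterol exporter and Ctss a lysosomal protease that is itself on the macrophage list. Its SD was 1.54 and 1.46 times that of the median gene.

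Ccl6, a myeloid chemokine of rodents, came next. It had a lowest, median and highest value of -0.241, 0.018 and 0.437 in the lower set and -0.425, -0.0964 and 0.349 in the upper set. Its r with the score was 0.70 and 0.69 (rho 0.67 and 0.67, adjusted p 1.12e-21 and 4.3e-21 by limma), and it was most like Ear3 (0.77 and 0.78), Evi2a (0.76 and 0.79) and Itgb2 (0.76 and 0.75), of which Ear3 is an eosinophil-associated ribonuclease. Ccl9, its immediate neighbour in the genome and of the same ligand class, showed r of 0.30 and 0.36 with the score and 0.33 and 0.30 with Ccl6. Ccl9 had -0.304, 0.069 and 0.335 in the lower set and -0.475, -0.134 and 0.123 in the upper set, with medians on opposite sides of the pool and ranges that overlapped. It was most like Ear3 (0.45 and 0.45), Itgb2 (0.41 and 0.45) and H2-Aa (0.38 and 0.37).

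Cxcl14, a chemokine of epithelia and stroma that attracts myeloid cells, had a lowest, median and highest value of -0.566, -0.0826 and 0.288 in the lower set and -0.637, 0.0397 and 0.773 in the upper set. It correlated with the macrophage score at 0.54 and 0.51 (rho 0.55 and 0.52, adjusted p 1e-11 and 1.91e-10 by limma), while its r with the T cell score was -0.071 and -0.19. The genes most like it were Arhgap22 (0.78 and 0.79), Tagln2 (0.74 and 0.86) and Itgax (0.77 and 0.73); Itgax encodes CD11c of dendritic cells and macrophages. Ccl24, an eosinophil attractant, rose with the score at 0.33 and 0.20. It was most like Ms4a8a (0.61 and 0.57), Adgre4 (0.61 and 0.57) and Clec4f (0.62 and 0.53). Clec4f is a lectin of Kupffer cells and is itself on the macrophage list. The Ccl24 call in the upper set was lost without the 6 arrays with pancreatic or muscle transcripts (adjusted p = 0.0631 by limma).

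Ccl2 and Ccl7, the monocyte attractants, rose with the macrophage score at 0.50 and 0.39 and 0.43 and 0.43 respectively, Ccl3 and Ccl4 at 0.29 and 0.44 and 0.43 and 0.48, and Cxcl10 at 0.40 and 0.36. Cxcl5 followed at 0.28 and 0.25, and Cxcl2 did not pass the test in either set (0.17 and 0.11, adjusted p 0.109 and 0.285 by limma). Members that fell with the score were Ccl25, a gut and thymus ligand, in the lower set (-0.34) and, in the upper set, Ccr7, Ccr8, Ccr9, Cx3cr1, Cxcl12 and Cxcl15 (r from -0.39 for Ccr8 to -0.23 for Ccr9). Cxcl12 is the stromal ligand that retains haematopoietic cells, and its lowest, median and highest values were -0.114, 0.0186 and 0.224 in the lower set and -0.187, -0.0312 and 0.139 in the upper set. It was most like Tfr2 (0.69 and 0.65), Itih1 (0.71 and 0.61) and Pdia5 (0.66 and 0.60), among them Tfr2 and Itih1, genes of hepatocytes. With 5 principal components of all genes as covariates the number of members called fell to 10 and 11. For Ccl2 in the upper set the partial r given those components was -0.11, beside a Pearson r of 0.39 without them. The components were computed from all genes without missing values, macrophage list genes and members among them.

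**Figure D3:**
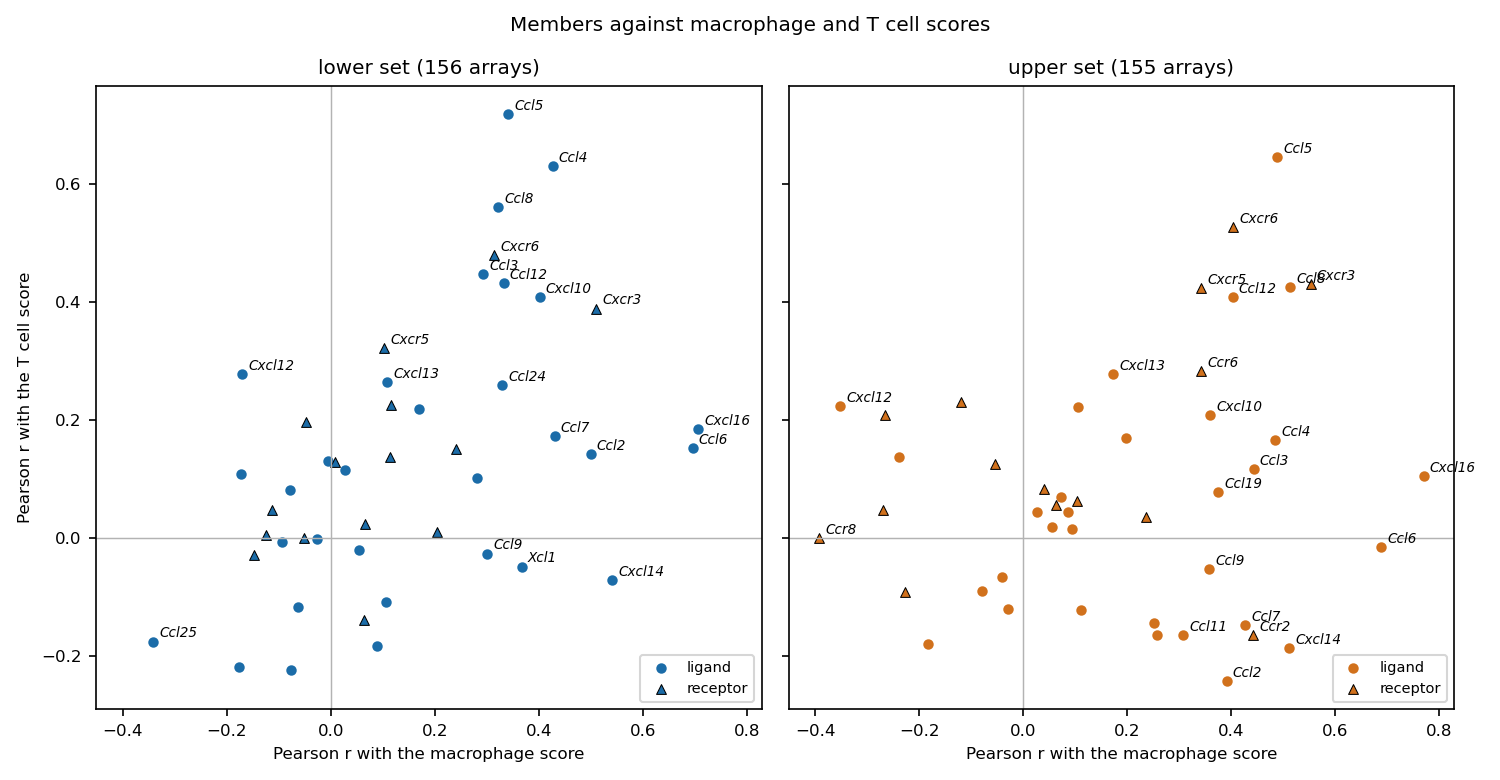
Pearson r of each member with the macrophage score (horizontal) and the T cell score (vertical), in the lower set at left and the upper set at right; circles are ligands and triangles receptors. Cxcl16 and Ccl6 lie farthest right in both panels and Ccl5 highest, while Cxcr3 and Cxcr6 are the receptors labelled high on both axes. The values of Ccl5 and Cxcl13 in the lower set are pooled over clusters of arrays described in the text.

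The T cell score, the mean of 15 standardized T cell genes, was less coherent than the macrophage score: Cd3g and Cd8a followed the rest best, at a mean r of 0.27 in the lower set and 0.23 in the upper set, and Cd6 and Cd5 least, at -0.049 and 0.025. Single T cell genes, Cd2 and Cd3g, are therefore given beside it. With the score, 14 members rose and 2 fell in the lower set (all genes called, 21.2%, with 11.8% up and 9.36% down) and 11 rose and 1 fell in the upper set (all genes called, 12.1%, with 5.93% up and 6.21% down). With Cd2 the counts were 19 up and 1 down (all genes called, 15.3%, with 8.73% up and 6.53% down) and 25 up and 3 down (all genes called, 25.7%, with 12.2% up and 13.6% down), and with Cd3g 15 up and 1 down (all genes called, 10.3%, with 6.71% up and 3.58% down) and 16 up and 3 down (all genes called, 18.7%, with 9.14% up and 9.58% down). Rising in both sets with the score were Ccl5, Ccl8, Ccl12, Cxcl12, Cxcr3, Cxcr5 and Cxcr6. Cxcl13 was called in both as well, but its lower-set arrays fell into 2 clusters, within which r was 0.063 and 0.065. Those clusters were cut on Cxcl13 itself, which narrows its range within each and can lower r. The median T cell score was -0.28 in the low and 0.50 in the high cluster. With Cd3g, 11 rose in both sets: Ccl3, Ccl4, Ccl5, Ccl6, Ccl8, Ccl12, Ccl24, Cxcl10, Cxcl16, Cxcr3 and Cxcr6. When the first principal component of the list replaced the mean, 25 members were called in the upper set in place of 12, and Ccl2 turned from -0.24 to 0.24 there, Cxcl12 from 0.22 to -0.16 and Ccr10 from 0.23 to -0.033. The call of Ccl17 in the lower set and those of Ccr6 and Cxcl13 in the upper set did not pass by the permutation p of rho (0.0868, 0.233 and 0.192).

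Ccl5, which T and NK cells release on activation, had a lowest, median and highest value of -0.373, -0.035 and 0.713 in the lower set and -0.537, -0.116 and 0.774 in the upper set. It spanned 4.93-fold and 6.11-fold between the 5 and 95 percentiles. In the lower set its values fell into 2 adjoining clusters of 120 and 36 arrays with medians of -0.0809 and 0.327, so r is given within each, the low cluster first. Within those clusters r with the T cell score was 0.35 and 0.64, with Cd3g 0.55 and 0.73, and with the macrophage score 0.36 and 0.19. Because the clusters were cut on Ccl5 itself, its range within each is narrowed, which can lower r. The median T cell score was -0.40 in the low and 1.08 in the high cluster. In the upper set r was 0.64 with the T cell score, 0.84 with Cd3g (rho 0.82, adjusted p 6.34e-38 by limma) and 0.49 with the macrophage score. In that set the genes most like Ccl5 were the T cell receptor segment Trav9d-3 (0.88), Eomes (0.85), a transcription factor of cytotoxic lymphocytes, and Cd3g, ranked over both sets. Within the lower-set clusters the r with Trav9d-3 was 0.65 and 0.68 and with Eomes 0.54 and 0.71.

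Ccl8 had a lowest, median and highest value of -0.737, -0.16 and 0.675 in the lower set and -0.534, -0.072 and 0.739 in the upper set. Its r with the T cell score was 0.56 and 0.42, with Cd2 0.66 and 0.70 and with the macrophage score 0.32 and 0.51. It was most like Tgtp1 (0.70 and 0.72), Cd2 (0.66 and 0.70) and Eomes (0.65 and 0.69), of which Tgtp1 is a GTPase induced by interferon. A second probe for Ccl8 agreed closely with the first (r 0.988 and 0.983). Ccl12, a ligand of Ccr2 and the neighbour of Ccl8, had -0.223, -0.017 and 0.289 in the lower set and -0.173, 0.00313 and 0.41 in the upper set and r of 0.43 and 0.41 with the T cell score. Its most similar genes were Cd3d (0.60 and 0.61), Ccl8 (0.56 and 0.57) and Cd3g (0.54 and 0.61), and its 2 probes correlated at 0.587 and 0.631.

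Cxcr3 and Cxcr6, receptors of effector and tissue-resident lymphocytes, were the 1 pair of receptors past an r of 0.5 in both sets, at 0.73 and 0.73. Cxcr3 had a lowest, median and highest value of -0.175, 0.0658 and 0.261 in the lower set and -0.379, -0.0683 and 0.237 in the upper set. Cxcr6 had -0.265, 0.0423 and 0.341 in the lower set and -0.37, -0.0921 and 0.331 in the upper set. For both genes the median was above the pool in the lower set and below it in the upper set, with overlapping ranges; the difference was not tested. Cxcr3 correlated with Cd2 at 0.71 and 0.76 (rho 0.72 and 0.76, adjusted p 5.32e-22 and 5.37e-28 by limma), with the T cell score at 0.39 and 0.43 and with the macrophage score at 0.51 and 0.55. Cxcr6 correlated with Cd3g at 0.68 and 0.77 (rho 0.70 and 0.75, adjusted p 1.63e-19 and 9.78e-29 by limma) and with the macrophage score at 0.31 and 0.40. Cxcr3 was most like Tbx21 (0.81 and 0.81), Il2rb (0.79 and 0.85) and Ptprcap (0.74 and 0.80), and Tbx21 encodes the T-bet factor of Th1 and NK cells. Cxcr6 was most like Cxcr3 (0.73 and 0.73), Fasl (0.72 and 0.77) and Ptprcap (0.70 and 0.73). Across ligands and receptors, Ccl5 and Cxcr6, which are not known as a ligand and its receptor, were the 1 combination past 0.5 in both sets (0.66 in the upper set).

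Ligands were then compared with their own receptors in 26 measured pairs. In the lower set 6 pairs rose together and 1 ran opposite, where 15.9% of all genes tested against the same receptors were called; in the upper set 12 rose together and 2 ran opposite, against 22.6%. Upward calls made up 8.45% and 11.3% of all such tests. Among the other 408 combinations of a measured ligand and a receptor, 55 rose and 17 fell in the lower set and 81 rose and 44 fell in the upper set, 17.6% and 30.6% of them in all. The median r was 0.0787 and 0.158 for known pairs and 0.0193 and 0.0284 for the other combinations. Pairs share ligands and receptors, so they are not independent of each other. Rising in both sets were 5 pairs, falling in both was 1, and 11 were called in neither.

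Ccr2, the receptor that brings monocytes out of marrow and into tissue, rose with both Ccl2 and Ccl7. It had a lowest, median and highest value of -0.234, -0.0173 and 0.249 in the lower set and -0.243, 0.0122 and 0.426 in the upper set. With Ccl2 the r was 0.38 (95% interval 0.24 to 0.51) in the lower set and 0.62 (95% interval 0.51 to 0.71) in the upper set, with rho 0.39 and 0.62, a permutation p of 1e-05 for each, the smallest that 100000 permutations give, and an adjusted p of 3.88e-05 and 5.02e-15 by limma. Without the 2 arrays farthest from the median of Ccr2 it was 0.36 and 0.59. With Ccl7 it was 0.48 and 0.62 (rho 0.47 and 0.62, permutation p 1e-05 for each). Among animals numbered up to and above the median F2 number, r of Ccl2 with Ccr2 was 0.40 and 0.35 in the lower set and 0.63 and 0.64 in the upper set. Ccl12, the third Ccr2 ligand measured, did not pass in either set (0.09 and 0.14, adjusted p 0.466 and 0.164 by limma). Ccr2 was most like Lum (0.57 and 0.59), Serpinb6b (0.57 and 0.66) and Tnfsf13b (0.53 and 0.56), and Tnfsf13b encodes the B cell factor BAFF.

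Cxcl10 rose with Cxcr3 at r 0.55 (95% interval 0.43 to 0.65) and 0.43 (95% interval 0.29 to 0.55), with rho 0.52 and 0.53, permutation p 1e-05 for each and adjusted p 1.9e-11 and 5.58e-07 by limma. It was 0.50 and 0.44 without the 2 arrays farthest from the median of Cxcr3. Cxcl11, another Cxcr3 ligand, spanned 1.62-fold and 1.69-fold between the 5 and 95 percentiles, with a lowest, median and highest value of -0.151, 0.0413 and 0.191 in the lower set and -0.254, -0.0492 and 0.15 in the upper set. Its r with Cxcr3 was 0.14 and 0.18 and did not pass (adjusted p 0.226 and 0.071 by limma). Cxcl11 was most like ZCCHC4 (0.36 and 0.60), Mybpc3 (0.37 and 0.36) and Nudt13 (0.44 and 0.35). Cxcl16, the only ligand known for Cxcr6, rose with it at 0.32 (95% interval 0.17 to 0.46) and 0.35 (95% interval 0.20 to 0.48) (rho 0.30 and 0.37, permutation p of r 4e-05 and 2e-05, adjusted p 0.00135 and 0.000485 by limma).

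**Figure D4:**
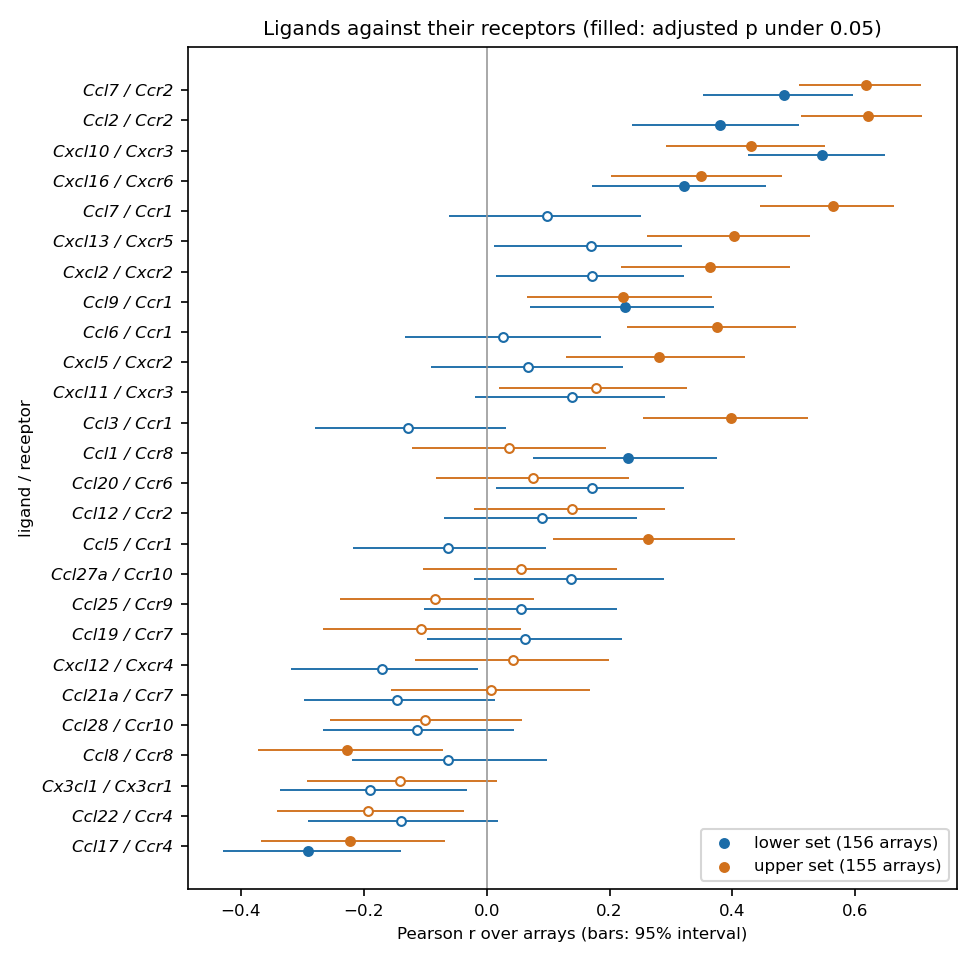
Pearson r of each ligand with its receptor (26 pairs) in the lower set (blue) and the upper set (orange), with 95% intervals; filled points have a limma adjusted p under 0.05. Ccl7 and Ccl2 with Ccr2 and Cxcl10 with Cxcr3 stand at the top, and Ccl17 with Ccr4 at the bottom. Values of Ccl27a, and of Ccl5 and Cxcl13 in the lower set, are pooled over clusters of arrays.

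Ccr1, a receptor of monocytes and neutrophils for several CC ligands, rose with Ccl9 in both sets (0.23 and 0.22, adjusted p 0.0458 and 0.0328 by limma), though the permutation p of rho in the upper set was 0.171. Its lowest, median and highest values were -0.306, 0.00288 and 0.256 in the lower set and -0.173, -0.000918 and 0.255 in the upper set. In the upper set Ccr1 also rose with Ccl7 (0.56, rho 0.52), Ccl3 (0.40, rho 0.36), Ccl6 (0.37, rho 0.30) and Ccl5 (0.26, rho 0.18). The lower-set r of Ccr1 was 0.098 with Ccl7, -0.13 with Ccl3 and 0.027 with Ccl6, none of which passed; with Ccl5 it was 0.018 and -0.23 within the 2 clusters of Ccl5. The difference between the sets was not tested. Ccr1 was most like TMEM170 (0.42 and 0.50), Tac2 (0.56 and 0.40) and Pag1 (0.35 and 0.41).

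Cxcr2, the neutrophil receptor for Cxcl2 and Cxcl5, rose with both in the upper set, at 0.36 (rho 0.30, permutation p of r 3e-05) and 0.28 (rho 0.25, permutation p of r 0.00043). The lower set gave r of 0.17 and 0.067, which passed for neither (adjusted p 0.106 and 0.578 by limma). Cxcr2 itself had a lowest, median and highest value of -0.124, 0.000622 and 0.219 in the lower set and -0.132, 0.012 and 0.228 in the upper set, a narrow range beside that of its ligands. The neutrophil score was the mean of 9 standardized neutrophil genes. With it 4 members rose and none fell by limma in each set. Of all genes, 3.34% were called in the lower set, 2.02% up and 1.32% down. In the upper set 2.25% of all genes were called, 1.35% up and 0.896% down. At an unadjusted limma p under 0.05, 8 members fell in the lower set and 1 in the upper set. Cxcr2 (0.36 and 0.32, rho 0.25 and 0.33) and Ccl24 (0.31 and 0.42, rho 0.29 and 0.42) were called as rising in both sets. Ccr2 and Cxcl13 were called as rising in the lower set and Ccl12 and Cxcl2 in the upper set. The genes most like Cxcr2 were Trem3 (0.48 and 0.46), S100a9 (0.44 and 0.49) and Tfap2c (0.43 and 0.44). Of these, S100a9 is on the neutrophil list. In the list S100a8 followed the rest best in both sets (0.68 and 0.49), and Csf3r and Elane least (0.14 in the lower set and -0.015 in the upper set).

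Ccl17 and Ccr4, the pair that guides Th2 and regulatory T cells, ran in opposite directions in both sets, at -0.29 (95% interval -0.43 to -0.14) and -0.22 (95% interval -0.37 to -0.067) (rho -0.28 and -0.23, permutation p of r 0.00025 and 0.0104, adjusted p 0.00181 and 0.0415 by limma). Ccl17 had a lowest, median and highest value of -0.184, 0.000802 and 0.195 in the lower set and -0.169, -0.0227 and 0.622 in the upper set. Ccr4 had -0.253, -0.00155 and 0.199 in the lower set and -0.199, 0.00473 and 0.312 in the upper set. Both had medians near the pool, and the highest value of each lay in the upper set. Without the 2 arrays farthest from the median of Ccr4 the r was -0.30 and -0.17. Ccl22, the other Ccr4 ligand, gave -0.14 and -0.19 and did not pass (adjusted p 0.17 and 0.0888 by limma). Its lowest, median and highest values were -0.23, 0.0275 and 0.381 in the lower set and -0.121, 0.0089 and 0.255 in the upper set. Ccl17 was most like Mid1 (0.54 and 0.54), Ccdc153 (0.53 and 0.57) and Emd (0.54 and 0.53), Ccl22 most like Dip2c (0.72 and 0.64), Sphkap (0.65 and 0.62) and Prdm9 (0.73 and 0.59) and Ccr4 most like Hrh4 (0.73 and 0.63), Ajm1 (0.66 and 0.62) and Cerkl (0.69 and 0.62); none of these is on a leukocyte list used here.

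Ccr8, a receptor of Th2 and regulatory T cells, rose with Ccl1 in the lower set (0.23, rho 0.22, adjusted p 0.0457 by limma) and fell with Ccl8 in the upper set (-0.23, rho -0.23, adjusted p 0.0205 by limma). The same pairs gave 0.037 for Ccl1 in the upper set and -0.062 for Ccl8 in the lower set. Ccr8 had a lowest, median and highest value of -0.102, -0.00817 and 0.0882 in the lower set and -0.104, 0.0373 and 0.321 in the upper set. Ccl1 had -0.317, 0.0181 and 0.267 in the lower set and -0.649, 0.0157 and 0.596 in the upper set. The wider Ccl1 range came from the upper set, at both ends. Ccl1 was most like Vmn2r10 (0.63 and 0.56), Hsf5 (0.52 and 0.51) and Grik1 (0.51 and 0.48) and Ccr8 most like Septin3 (0.53 and 0.56), Sh3gl2 (0.48 and 0.61) and Tll1 (0.54 and 0.48).

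Pairs called in neither set joined Ccr6, Ccr7, Ccr9, Ccr10, Cx3cr1 or Cxcr4 to their ligands, beside the Ccl12, Ccl22 and Cxcl11 pairs above. Ccl20, the mucosal ligand of Ccr6, had a lowest, median and highest value of -0.592, -0.125 and 0.426 in the lower set and -0.64, 0.0174 and 0.906 in the upper set. Ccr6 had -0.276, -0.0115 and 0.34 in the lower set and -0.344, -0.0237 and 0.768 in the upper set. The Ccl20 and Ccr6 ranges both reached highest in the upper set, yet their r was 0.17 and 0.076 (adjusted p 0.123 and 0.574 by limma). Ccl20 was most like St14 (0.55 and 0.55), Tspan8 (0.54 and 0.60) and Gipc2 (0.51 and 0.58), of which St14 and Tspan8 are epithelial genes. Ccr6 was most like Synj2 (0.50 and 0.49), Dynlt1b (0.44 and 0.65) and St8sia6 (0.47 and 0.43).

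Cx3cl1, the membrane-bound fractalkine, gave r of -0.19 and -0.14 with its receptor Cx3cr1 (rho -0.24 and -0.19, adjusted p 0.137 and 0.182 by limma). Cx3cl1 had a lowest, median and highest value of -0.157, 0.0157 and 0.163 in the lower set and -0.213, 0.0109 and 0.279 in the upper set. Cx3cr1 had -0.585, -0.00408 and 0.147 in the lower set and -0.309, 0.0125 and 0.468 in the upper set, with 1 array far below the others in the lower set. Cxcl12 with its receptor Cxcr4 gave -0.17 and 0.042 (adjusted p 0.14 and 0.766 by limma), and Cxcr4 had -0.221, 0.000638 and 0.123 in the lower set and -0.109, 0.0154 and 0.213 in the upper set. Cx3cl1 was most like Fgd2 (0.62 and 0.52), Pram1 (0.53 and 0.52) and H2-Q5 (0.71 and 0.48) and Cx3cr1 most like Trhr2 (0.49 and 0.53), Bloc1s3 (0.46 and 0.53) and Gsx2 (0.46 and 0.48). Cxcr4 was most like Olfr6 (0.53 and 0.58), Gsx2 (0.53 and 0.53) and Olfr860 (0.59 and 0.52), a homeobox gene and 2 olfactory receptor genes, and none of the 3 is on a leukocyte list used here.

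Ccl25, the ligand of the gut-homing receptor Ccr9, had a lowest, median and highest value of -0.232, 0.0189 and 0.265 in the lower set and -0.178, -0.038 and 0.107 in the upper set. Ccr9 had -0.236, -0.00724 and 0.211 in the lower set and -0.211, 0.0317 and 0.192 in the upper set. Their r was 0.056 and -0.083. Ccl25 was most like Ahcy (0.60 and 0.60), Nr3c1 (0.57 and 0.58) and Igfbp4 (0.58 and 0.56), and Ahcy and Igfbp4 are genes of hepatocytes. Ccr9 was most like Olfr1126 (0.65 and 0.64), Rpl21 (0.59 and 0.56) and Dzip3 (0.55 and 0.57). Ccl28, a mucosal ligand of Ccr10, had -0.143, 0.0276 and 0.283 in the lower set and -0.204, 0.0187 and 0.201 in the upper set and r of -0.11 and -0.10 with Ccr10. It was most like Defb3 (0.56 and 0.54), Syt9 (0.53 and 0.54) and Syt14 (0.53 and 0.58), and Ccr10 was most like Rbfa (0.47 and 0.51), Gadl1 (0.47 and 0.50) and Zc3h12c (0.45 and 0.63).

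**Figure D5:**
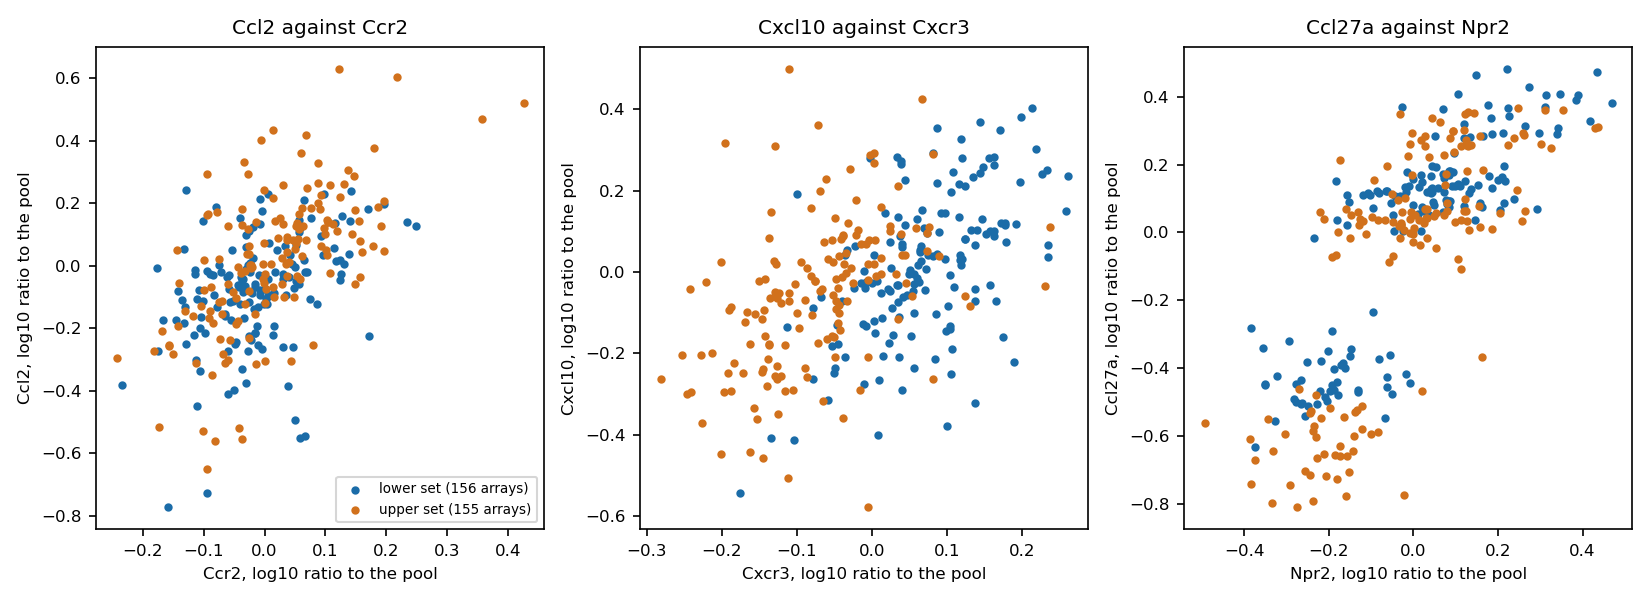
Each point is 1 array (blue, lower set; orange, upper set) on log10 ratios to the pool: Ccl2 against Ccr2, Cxcl10 against Cxcr3, and Ccl27a against the gene most like it, Npr2. The first 2 panels show 1 continuous cloud per set, and the third shows Ccl27a in separate high and low clusters, with Npr2 lower on most arrays of the low cluster.

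Of the homeostatic lymphoid ligands, Cxcl13 was the one called with the B and plasma cell score, the mean of 8 standardized genes, in both sets. Its lower-set call is pooled over the 2 clusters described next, within which r with that score was 0.20 and 0.25. The upper-set call did not pass by the permutation p of rho. Cxcl13, which draws B cells into follicles through Cxcr5, had a lowest, median and highest value of -0.328, -0.0749 and 0.857 in the lower set and -0.416, -0.132 and 0.941 in the upper set. It formed adjoining clusters of 129 and 27 arrays with medians of -0.0969 and 0.312 in the lower set. Within them r with Cxcr5 was 0.10 and 0.18, with the macrophage gene Marco 0.24 and 0.48 and with the B cell gene Cd79b 0.25 and 0.59. Cxcl13 rose with Cxcr5 in the upper set (0.40, adjusted p 3.18e-05 by limma), but rho was 0.17 and r fell to 0.18 without the 2 arrays farthest from the median of Cxcr5, so that value rests on those arrays. Over all genes and both sets, those most like Cxcl13 were Marco, Cd79b and Pou2af1, at 0.51, 0.53 and 0.62 in the upper set.

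Cxcr5, the follicular homing receptor of B cells, had a lowest, median and highest value of -0.133, 0.0207 and 0.237 in the lower set and -0.153, 0.00145 and 0.681 in the upper set. It rose with the B and plasma cell score at 0.47 and 0.61 (rho 0.44 and 0.33, adjusted p 3.69e-06 and 4.85e-13 by limma), and at 0.41 and 0.32 without the 2 arrays farthest from the median score. It was most like Pou2af1 (0.55 and 0.62), Tbc1d10c (0.48 and 0.65) and Ptprcap (0.48 and 0.59), and Pou2af1 is a coactivator of B cells. With this score 2 members rose in the lower set (all genes called, 17.6%, with 9.53% up and 8.09% down) and 6 rose and 1 fell in the upper set (all genes called, 17.8%, with 8.81% up and 9.01% down); both shares of members lay below the share of all genes. Cxcl13 was the other member called in both sets, with r of 0.20 and 0.25 within its lower-set clusters. Ccl21a, Ccr6 and Cxcr3 were called in the upper set but fell to 0.018, -0.0091 and 0.049 without 2 arrays, and Cxcl13 to 0.15. None of these 4 upper-set calls passed by the permutation p of rho, the lowest at 0.157. In the list Cd79b followed the rest best (0.14 and 0.21) and Derl3 least (-0.0021 and -0.016).

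Ccl19 and Ccl21a, the ligands that bring naive T cells and dendritic cells to Ccr7, gave r of 0.062 and -0.11 and -0.15 and 0.0066 with that receptor, and neither passed. Ccl19 had a lowest, median and highest value of -0.477, 0.00635 and 0.23 in the lower set and -0.178, 0.0169 and 0.218 in the upper set. Ccl21a had -0.274, -0.00625 and 0.244 in the lower set and -0.227, -0.0164 and 0.545 in the upper set. Ccr7 had -0.309, 0.025 and 0.231 in the lower set and -0.197, 0.0324 and 0.458 in the upper set. All 3 genes had medians close to the pool in both sets. The 3 probes for Ccl21a correlated with each other at only -0.10 to 0.38, and the gene has near-identical copies, so its values are uncertain. Ccl19 was most like Ptgir (0.40 and 0.53), Ccl3 (0.38 and 0.49) and Cdca7l (0.37 and 0.41), Ccl21a most like Mmp3 (0.49 and 0.52), Retnla (0.51 and 0.47) and Acta2 (0.44 and 0.45) and Ccr7 most like Cntn6 (0.66 and 0.71), Nmnat2 (0.62 and 0.62) and Tll2 (0.61 and 0.68); Mmp3 and Acta2 are genes of fibroblasts and smooth muscle.

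Ccl11, the eotaxin made by fibroblasts, shared Acta2 with Ccl21a among its closest genes. It had a lowest, median and highest value of -0.572, -0.102 and 0.549 in the lower set and -0.402, -0.027 and 0.767 in the upper set. The genes most like it were Cpe (0.64 and 0.58), Tbx1 (0.58 and 0.53) and Acta2 (0.51 and 0.58). Its r with the macrophage score was -0.064 and 0.31, and it rose with that score in the upper set alone (adjusted p 0.00061 by limma); the difference between the sets was not tested. Xcl1, the lymphotactin of NK and CD8 T cells, was called with the macrophage score in the lower set (0.37; 0.027 in the upper set). It was most like Acyp1 (0.42 and 0.54), Klre1 (0.59 and 0.41) and Txk (0.66 and 0.39), and Klre1 and Txk are genes of NK and T cells. Ccr1l1, a receptor-like neighbour of Ccr1, reached 1.07 on 1 upper-set array, spanned 1.76-fold and 1.91-fold between the 5 and 95 percentiles and had a median of -0.00859 and 0.00643. Cxcl15, with the smallest SD of the ligands, was most like Srrm3 (0.54 and 0.58), Cplx2 (0.58 and 0.52) and Rnf112 (0.52 and 0.64).

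With the interferon response score, the mean of 14 interferon-induced genes, 19 members rose and 2 fell in the lower set (all genes called, 15%, with 8.7% up and 6.26% down) and 17 rose and 4 fell in the upper set (all genes called, 21.4%, with 11.3% up and 10.1% down). Ifit3 followed the rest of that list best (0.58 and 0.60) and Iigp1 least (0.10 and -0.039). Cxcl10, named for its induction by interferon gamma, had r of 0.52 and 0.38 (rho 0.54 and 0.40, adjusted p 4.2e-10 and 3.58e-05 by limma). Ccl6 stood at 0.50 and 0.42, Cxcl16 at 0.36 and 0.48 and Cxcl14 at 0.41 and 0.41. Cxcl11, which is also interferon-inducible, passed in the upper set alone (0.19 and 0.24). Rising in both sets were 15 members, Ccl2 to Ccl8 as measured, Ccl12, Ccl19, Ccr2, Cxcl10, Cxcl14, Cxcl16, Cxcr3 and Cxcr6. With 5 principal components of all genes as covariates the upper-set count fell from 21 to 2.

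With the acute phase score, the mean of 9 hepatocyte genes of the systemic response such as Saa1 and Orm2, 7 members rose and 3 fell in the lower set (all genes called, 21.6%, with 10.7% up and 10.8% down) and 4 rose and none fell in the upper set (all genes called, 10.1%, with 4.58% up and 5.52% down; at an unadjusted limma p under 0.05, 1 fell). Orm2 and Saa3 followed the rest of the list best (0.72 in the lower set and 0.66 in the upper set) and Crp least (0.43 and 0.26). Members were thus called at 21.7% and 8.70%, close to the share of all genes. Of the calls, Ccl12, Ccr1 and Cxcr2 were made in both sets, with r of 0.22, 0.31 and 0.33 in the lower set. In the upper set the score itself fell into clusters of 128 and 27 arrays, so the calls there are pooled over clusters and no r is given. Cxcl2 was the fourth member called in the upper set, and in the lower set its r was 0.04 while rho was 0.40. Ccl2 was called as falling in the lower set at r -0.29, but rho was 0.18 and r was -0.12 without the 2 arrays farthest from the median score, so its direction was not settled. The lower-set calls of Ccl3, Ccr7 and Cxcl12 did not pass by the permutation p of rho (0.824, 0.191 and 0.595).

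Ccl27a was the 1 member whose arrays clustered in both sets. Its lowest, median and highest values were -0.634, 0.107 and 0.482 in the lower set and -0.811, 0.0363 and 0.366 in the upper set. In each set the arrays fell into 2 separate clusters with no value between them. In the lower set 46 arrays, or 29.5% (exact binomial 95% interval 22.5% to 37.3%), formed the low cluster, whose highest value was -0.234, and the lowest of the other 110 was -0.0178. There were 44 such arrays in the upper set, or 28.6% (21.6% to 36.4%), which lay at or below -0.367 and the other 110 at or above -0.109. Cluster medians were 3.83-fold and 4.67-fold apart. The binomial intervals cover counting error only.

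Because Ccl27a was clustered, its relations are given within clusters, lower-set values first. With the macrophage score r was 0.095 and -0.17 in the low clusters and -0.078 and 0.055 in the high clusters. With the T cell score it was 0.12 and 0.26 in the low and 0.11 and 0.11 in the high clusters. With Ccr10, its receptor, it was -0.039 and 0.021 in the low and 0.13 and 0.027 in the high clusters. The 3 genes most like Ccl27a over all genes were Npr2, the receptor of C-type natriuretic peptide, Mob3b and Prkaa2, a catalytic subunit of AMP-activated kinase, and all 3 lie on its chromosome, with 43, 39 and 381 protein-coding genes between. Npr2 had a median of -0.199 in the low and 0.0838 in the high cluster of the lower set, and of -0.215 and 0.0342 in those of the upper set. The ranking of these 3 genes used r pooled over the clusters. Within the high clusters r with Npr2 was 0.65 and 0.50, and within the low clusters 0.16 and 0.31. With Mob3b it was 0.38 and 0.32 in the high and 0.19 and -0.11 in the low clusters. With Prkaa2 it was 0.42 and 0.27 in the high and -0.036 and -0.12 in the low clusters. All these clusters were cut on Ccl27a itself, which narrows its range within each and can lower r. Ccl27a has a near-identical copy, Ccl27b, so which copy the probe reads is uncertain.

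Genes that lie side by side were not always correlated. Of the pairs of members with no protein-coding gene between them in the RefSeq gene table, Ccl3 with Ccl4 and Ccl2 with Ccl7 were highest in both sets, as above, followed by Ccl8 with Ccl12 (0.56 and 0.57). Ccl6 gave 0.33 and 0.30 with Ccl9 and 0.19 and 0.51 with Ccl3, its neighbours on either side, and Ccr8 gave 0.024 and 0.34 with Cx3cr1. Ccl5 and Ccl9, also adjacent, stood at 0.034 in the upper set, and Ccl17 and Cx3cl1 at -0.12 and 0.15. Ccl11 lies next to Ccl7 and gave 0.087 and 0.47. Cxcl2 and Cxcl5, with 5 protein-coding genes between them, were correlated at 0.60 and 0.55.

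Other genes of chemokine signalling were listed apart from the members, and 23 were measured. With the macrophage score 11 rose and 2 fell in the lower set (all genes called, 24.1%, with 12.8% up and 11.4% down) and 12 rose and 3 fell in the upper set (all genes called, 36.1%, with 16% up and 20.1% down), with a median r of 0.189 and 0.257. Highest were Vav1, a Rac exchange factor of leukocytes (0.83 and 0.81), Rgs2, which shortens G protein signalling (0.83 and 0.82), Rac2, the haematopoietic Rac (0.75 and 0.73), and Arrb2, an arrestin that desensitizes receptors (0.68 and 0.74). The platelet chemokines Pf4 (0.49 and 0.57) and Ppbp (0.39 and 0.45) rose as well. Ackr4, a scavenger of Ccl19, Ccl21 and Ccl25, fell in both sets (-0.20 and -0.25), and Grk6, a receptor kinase, and Plcb3 in the upper set (-0.20 and -0.29 respectively). Dpp4, the protease that clips many chemokines, fell in the lower set (-0.20) and had r of -0.15 in the upper set, which did not pass. With the T cell score 6 rose and 1 fell in the lower set (all genes called, 21.2%, with 11.8% up and 9.36% down) and 3 rose and 2 fell in the upper set (all genes called, 12.1%, with 5.93% up and 6.21% down). Vav1 (0.41 and 0.28), Rac2 (0.31 and 0.29) and Arrb2 (0.29 and 0.25) rose in both sets. Those that fell were Dpp4 in the lower set (-0.23) and the elastase Mmp12 and Gnai2, a Gi subunit, in the upper set (-0.31 and -0.24 respectively).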

How the data were processed

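Liver RNA of 311 F2 mice was hybridized on 2-colour arrays, 1 per animal. The deposited values are log10 ratios of animal (Cy3) to pool (Cy5), with dyes and pool per the labels. The authors' normalization and background correction are not given in the sources used here. Log base, which no label states, and sign were settled from Eif2s3y: over all animals the mean of 10 to the power of its value was 1.1, as a ratio to a pool of all samples requires, beside 0.808 for base 2. Values were used as deposited and end at -2 and 2; 0.745% were missing, and no member value was at a limit. Of 23388 probes, 13645 named 1 gene through the platform annotation, 48 several and 9695 none. Probes present on at least 95% of arrays were kept, 1 per gene (fewest missing), giving 11387 genes.

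Within each set, limma 3.58.1 (R 4.3.3) was fitted to all genes on 1 regressor at a time: 6 list scores (means of standardized genes), each receptor, and Ctss, Lgmn, Cd2 and Cd3g. P-values were adjusted over all genes tested by Benjamini-Hochberg, and calls were made at 0.05. Pearson r and Spearman rho carry two-sided p-values from 100000 permutations within each set. These were run for all 46 members with the macrophage and T cell scores and for the 26 pairs. With the other scores and the single genes they were run only for members that limma called in at least 1 set. Each r so tested was recomputed without 2 arrays. Intervals of r are 95%, by Fisher's transformation. A gene was treated as clustered where a mixture of 2 normal distributions was preferred to 1 normal and to 1 t distribution, each by at least 10 in the Bayesian information criterion, with at least 0.1 of the arrays in the smaller part and Ashman's D of at least 2. Data were also simulated, keeping each gene's mean, SD and missing values on these arrays. The regressor and the noise of each gene were independent normal draws. In each simulation 200 of 11387 genes were related to the regressor. At r of 0.3, 69.5% and 66.5% of the 200 were recovered in the lower and upper set. At 0.4 the shares were 98.5% and 99%, and at 0.2 they were 5% and 9.5%. These shares hold only for 200 related genes and for noise that genes do not share, whereas measured genes vary together. With the macrophage score 24.1% and 36.1% of all genes were called, and recovery with so many related genes was not tested.

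The members, lists and pairs were chosen with earlier results of these data known. Lists had 24 of 26 (macrophage), 15 of 18 (T cell), 8 of 11 (B and plasma cell), 9 of 11 (neutrophil), 14 of 16 (interferon response) and 9 of 15 (acute phase) genes measured, and 26 of 38 pairs. Named genes were the members, the list genes that followed their list most and least, the 4 single genes, the pathway genes and, for each described member, the 3 genes with the highest lower value of r over the sets. Promoters were from RefSeq (GRCm38.p6), which matched 34 of 46 members. The alternatives are given in the closing section. Python 3.11.15 with pandas 2.3.3, numpy 2.4.6 and scipy 1.17.1 was used.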

Additional observations from a re-analysis of the deposited data

How the results depend on the processing

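Of the recomputed counts, 196 stayed within 1.5 times the value reported and 38 did not. Fits to fewer animals, which have less power by construction, moved many of these. With animals numbered up to the median F2 number of 186, members called fell to 12 (macrophage) and 10 (T cell) in the lower set, and in the upper set to 6 (T cell), 4 (B and plasma cell), 0 (neutrophil), 3 (interferon response) and 0 (acute phase), with 8 pairs. With animals above it they fell in the lower set to 8 (T cell), 0 (B and plasma cell), 0 (neutrophil), 11 (interferon response) and 2 (acute phase), with 3 pairs, and in the upper set to 6 (T cell), 2 (B and plasma cell), 0 (neutrophil) and 2 (acute phase), with 8 pairs. Where limma called 0, an unadjusted p under 0.05 was reached in the first fit by 10 (neutrophil) and 5 (acute phase) members of the upper set, and in the second by 7 (B and plasma cell) and 8 (neutrophil) of the lower set and 11 (neutrophil) of the upper set. With 5 principal components of all genes as covariates the lower set gave 10 (macrophage), 5 (B and plasma cell) and 6 (acute phase), with 3 pairs, and the upper set 11 (macrophage) and 2 (interferon response), with 8 pairs. In that fit r is a partial r given the components, which were computed from genes that include the lists and members. With the macrophage score it turned to 0.00604 for Ccl25, -0.104 for Ccr2 and -0.0617 for Cxcl5 in the lower set. In the upper set it turned to -0.0252 for Ccl11, -0.110 for Ccl2, -0.190 for Ccl20, -0.0255 for Ccr1, 0.00143 for Cx3cr1 and -0.156 for Cxcl5. The cause was not tested. Keeping only probes measured on every array, which tests fewer genes, gave 4 (B and plasma cell) and 1 pair in the lower set and 16 (macrophage), 11 (interferon response), 4 pairs and 8 members of wide spread in the upper set. The B and plasma cell count of the lower set, 2, became 6 with array medians subtracted, 5 with the probe of largest SD, 4 without the 10 arrays of largest spread and 4 with the first principal component of the list, for causes not tested. That component also gave 25 (T cell) and 14 (B and plasma cell) in the upper set, where r with the T cell score turned to 0.241 for Ccl2, -0.0333 for Ccr10 and -0.161 for Cxcl12. Without the 6 arrays with pancreatic or muscle transcripts, an alternative chosen after seeing the data, the T cell count of the upper set was 9. Splitting at -0.7 or -0.3 gave the same sets, so results there could not differ. Each of these splits contributed 16 to the 196 counts that stayed within 1.5 times the value reported. Among members called with the macrophage or T cell score and called pairs, 1238 recomputed values kept their call, 162 lost it and 12 turned direction. Of the values that kept their call, 98 came from each of these splits. No paired analysis was possible because the labels give 1 group.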
